A study of Mus musculus with 4 samples.

Results

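Beta-defensins are small, cationic secreted peptides held together by paired cysteines, and many are made by the epithelium of the epididymis, the coiled duct in which sperm mature. There they coat sperm and act as antimicrobial peptides, and the principal cells, the main secretory cells of the duct, are known as their source. The *Spag11* genes lie among them and encode sperm-associated epididymal proteins with defensin-like parts. The genes described here are the 9 named beta-defensin and *Spag11* genes of the proximal run on mouse chromosome 8, taken by symbol from the deposited table: *Defb40*, *Defb37*, *Defb38*, *Defb39*, *Defb12*, *Spag11b*, *Spag11a*, *Defb14* and *Defb6*. All 9 are among the 16892 genes of the table.

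The study asked how gene use changes along the male tract, and made single-cell RNA-Seq libraries from caput, corpus and cauda epididymis and from vas deferens of FVB/NJ mice aged 10 to 12 weeks. Each region was 1 library, a pool of pieces of 8 epididymides from 4 adult males, with no treatment named, so no test between regions was possible, and the intervals below cover counting error only. By the paper's account, the cuts between regions were placed slightly differently from sample to sample. The libraries held 1433 caput, 2325 corpus, 1616 cauda and 3506 vas deferens cells, which the authors had sorted into 34 populations, 15 of them principal cells. A level is given as UMIs of the gene per 1000000 UMIs of the group of cells (UPM), with an exact 95% Poisson interval.

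The 3956 principal cells carried 9564385 UMIs, and their median depth per library ran from 658 UMIs in the corpus to 1286.5 in the vas deferens. All 18 markers checked for the 6 other cell types were highest in their own cell type, and *Gpx5*, *Lcn5*, *Npy* and *Akr1b7* peaked in principal cells of the caput, corpus, corpus and vas deferens. The suspensions had been cleared of sperm, and the sperm genes *Prm1*, *Prm2* and *Tnp2* had 4, 2 and 0 UMIs in all. Of the cell barcodes, 43 occurred in more than 1 library.

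The 9 genes lie within 253 kb of chromosome 8 (GRCm38), and their order there is the order used below. *Defb40* (chr8:18974940-18978256), *Defb37* (chr8:18986233-18991055), *Defb38* (chr8:19023407-19026566), *Defb39* (chr8:19052826-19064810) and *Defb12* (chr8:19111931-19114839) are on the minus strand. *Spag11b* (chr8:19140759-19143010), *Spag11a* (chr8:19157886-19159578), *Defb14* (chr8:19194357-19195212) and *Defb6* (chr8:19225478-19228209) are on the plus strand.

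What makes these genes one family can be seen in the coding strand itself. The lines below show, 5′ to 3′, the part of each coding sequence that runs from the first to the last of its final 6 in-frame cysteine codons, which are in capitals. Each stretch lies within 1 exon (GENCODE vM21).
Defb40: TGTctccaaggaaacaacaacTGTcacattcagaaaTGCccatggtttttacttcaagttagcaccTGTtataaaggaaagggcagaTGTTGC
Defb37: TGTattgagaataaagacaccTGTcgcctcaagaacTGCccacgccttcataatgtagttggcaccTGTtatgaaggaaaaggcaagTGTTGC
Defb38: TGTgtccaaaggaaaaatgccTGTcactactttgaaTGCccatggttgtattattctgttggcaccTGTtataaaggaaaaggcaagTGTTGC
Defb39: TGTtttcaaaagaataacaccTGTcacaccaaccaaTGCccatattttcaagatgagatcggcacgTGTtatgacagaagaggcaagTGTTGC
Defb12: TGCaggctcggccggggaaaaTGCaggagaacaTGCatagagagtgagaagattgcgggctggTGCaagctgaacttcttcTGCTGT
Spag11b: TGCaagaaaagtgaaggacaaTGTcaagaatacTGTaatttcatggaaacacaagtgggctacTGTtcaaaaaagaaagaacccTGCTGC
Spag11a: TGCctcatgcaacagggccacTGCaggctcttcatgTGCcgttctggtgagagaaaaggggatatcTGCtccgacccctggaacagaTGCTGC
Defb14: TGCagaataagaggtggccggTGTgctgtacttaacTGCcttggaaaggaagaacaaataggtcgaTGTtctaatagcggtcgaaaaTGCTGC
Defb6: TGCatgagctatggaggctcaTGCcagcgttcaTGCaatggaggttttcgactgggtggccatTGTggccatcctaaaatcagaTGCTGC

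The spacing is almost fixed: in order, 6 codons, 3 or 4, 9, and 5 or 6 separate neighbouring cysteines, and none separates the last pair. The letters between the cysteines differ. The coding sequences of *Defb40*, *Defb37*, *Defb38* and *Defb39* were 63.0% to 72.0% identical to each other over global alignments. *Spag11a* and *Spag11b*, despite their shared name, were 41.3% identical. The 30 pairs not drawn from those 4 genes alone, this pair included, had 38.2% to 54.8%. Identity was counted per column of the alignment, so unequal length lowers it. The coding sequence has 339 bases in *Spag11b* and 207 in *Spag11a*.

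These differences matter for the counts, because reads that matched several places were ignored in the authors' counting. The longest run shared by transcripts of any 2 of the 9 genes was 22 bases, and none shared a run of 50 bases with another of the 9. Words of 50 bases were shared with other annotated genes in 3 cases. *Defb12* shared 30 of its 954 such words with *Defb35* and *Gm45796*. A GENCODE gene, *Gm45826*, overlaps both *Spag11b* and *Spag11a* and shares 33 of 1785 words with the former and 138 of 387 with the latter. It had no row of its own in the table, so any of its reads from the shared words could not be told apart from those of *Spag11a*. RefSeq also draws *Defb14* from 323 bases past the end of *Spag11a*, which is within the 1000 bases by which the authors' counting extended each transcript.

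All 9 genes had their highest level of the 34 populations in a principal population, against 24.4% of 11614 genes that reached 20 UMIs in a population. Among the libraries of principal cells, the caput was highest for 2 of the 9, the corpus for 5, the cauda for 2 and the vas deferens for 0. By the rule of at least 20 UMIs in 1 library and 4 times the level of every other library, *Spag11b* and *Defb37* were restricted to 1 region. That is 2 of 9, where 6.16% of 9854 genes deep enough for the rule passed. At 2-fold all 9 passed, against 19.1% of the same genes. The median log2 ratio of the highest library over the next was 1.56 for the 9 genes and 0.42 for the 9854.

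**Figure D1:**
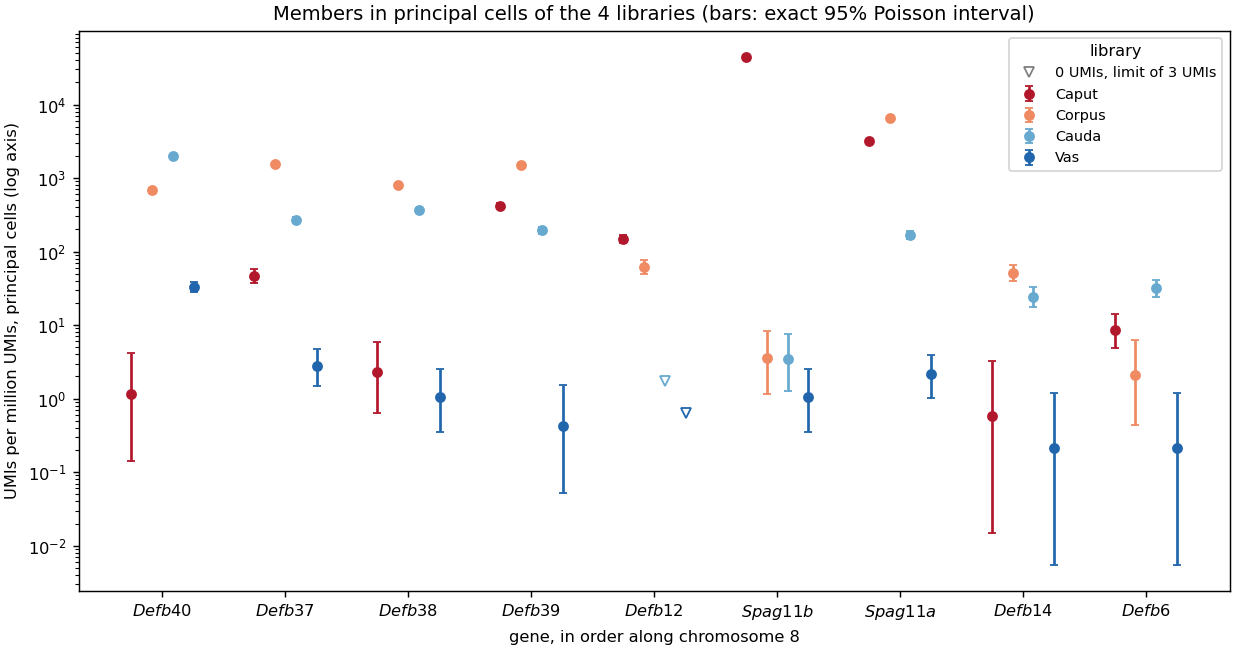
Level of each of the 9 genes in principal cells of the caput, corpus, cauda and vas deferens libraries, as UPM on a log axis, with exact 95% Poisson intervals; open triangles mark a count of 0 at the limit of 3 UMIs. *Spag11b* stands at 44409 UPM in the caput and under 4 UPM elsewhere, and in the vas deferens *Defb40*, at 33.3 UPM, is the highest of the 9.

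*Spag11b* was the most abundant of the 9 genes. Caput principal cells had 44409 UPM (76540 UMIs, 44095 to 44725), corpus cells 3.52 UPM (5 UMIs), cauda cells 3.45 UPM (6 UMIs) and vas deferens cells 1.07 UPM (5 UMIs). The caput stood apart from all 3 other libraries, which did not differ beyond their intervals. The ratio of caput over corpus was 12601 (95% interval 5400 to 38811). It was found in 622 of the 736 caput principal cells, and no cell held more than 2.27% of its UMIs there.

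*Spag11a*, the next gene along, did not follow it. Its caput level was 3206 UPM (3122 to 3291), its corpus level 6558 UPM (6425 to 6692), its cauda level 169 UPM (150 to 189) and its vas deferens level 2.14 UPM (10 UMIs). The corpus level was 2.05 times that of the caput (1.98 to 2.12).

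The 4 related defensins *Defb40*, *Defb37*, *Defb38* and *Defb39*, first described in mouse epididymis, were low in the caput, with 1 exception, and peaked in the corpus or cauda. For *Defb40*, caput cells had 1.16 UPM (2 UMIs), corpus cells 683, cauda cells 2013 and vas deferens cells 33.3. It alone of the 4 was highest in the cauda, at 2.95 times the corpus level (2.74 to 3.17). *Defb37* had 46.4, 1560, 267 and 2.78 UPM in the same order, and its corpus level was 5.84 times that of the cauda (5.28 to 6.46). *Defb38* had 2.32 (4 UMIs), 814, 367 and 1.07 UPM (5 UMIs), with the corpus 2.22 times above the cauda (2.01 to 2.45).

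*Defb39* was the exception, with a clear signal in the caput library, most of it in the caput cells of populations 4 and 5, described below. Caput cells had 422 UPM (392 to 454), corpus cells 1503 (1440 to 1569), cauda cells 194 (174 to 216) and vas deferens cells 0.43 (2 UMIs). Corpus and caput, its 2 highest libraries, differed 3.56-fold (3.27 to 3.88).

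*Defb12* was seen in principal cells of the first 2 regions only, at this depth: 150 UPM in the caput (259 UMIs), 62.0 in the corpus (88 UMIs) and 0 UMIs in the cauda and vas deferens. With no UMI, the limit of 3 UMIs is 1.72 UPM for the cauda and 0.641 UPM for the vas deferens, and the lower limit of the exact interval of caput over vas deferens is 189. *Defb14*, the mouse counterpart of human beta-defensin-3, was a low gene with 1 UMI in the caput, 73 in the corpus (51.5 UPM, 40.3 to 64.7), 42 in the cauda (24.1 UPM, 17.4 to 32.6) and 1 in the vas deferens. *Defb6* had 15 UMIs in the caput (8.70 UPM, 4.87 to 14.4), 3 in the corpus, all in 1 cell, 55 in the cauda (31.6 UPM, 23.8 to 41.2) and 1 in the vas deferens. For *Defb6* the cauda was 3.63 times the caput (2.02 to 6.92), and the corpus between them was the lowest of the 3 epididymal libraries.

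Together the 9 genes took 4.82% of all UMIs of caput principal cells, 1.12% of corpus, 0.307% of cauda and 0.00412% of vas deferens ones. The caput value was almost all *Spag11b*, with 92.0% of the members' UMIs, and in the corpus *Spag11a* took 58.4%.

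The principal populations, numbered 1 to 15 from the caput to the vas deferens, resolve this further. The authors clustered cells on these same counts, so the levels by population are a description. The order of the populations is theirs, and the position of a cell along the duct was not measured here. Populations 1 to 3 held caput cells, 4 and 5 caput and corpus cells, 6 and 7 mostly corpus cells, 8 to 11 mostly cauda cells, and 12 to 15 nearly all vas deferens cells.

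**Figure D2:**
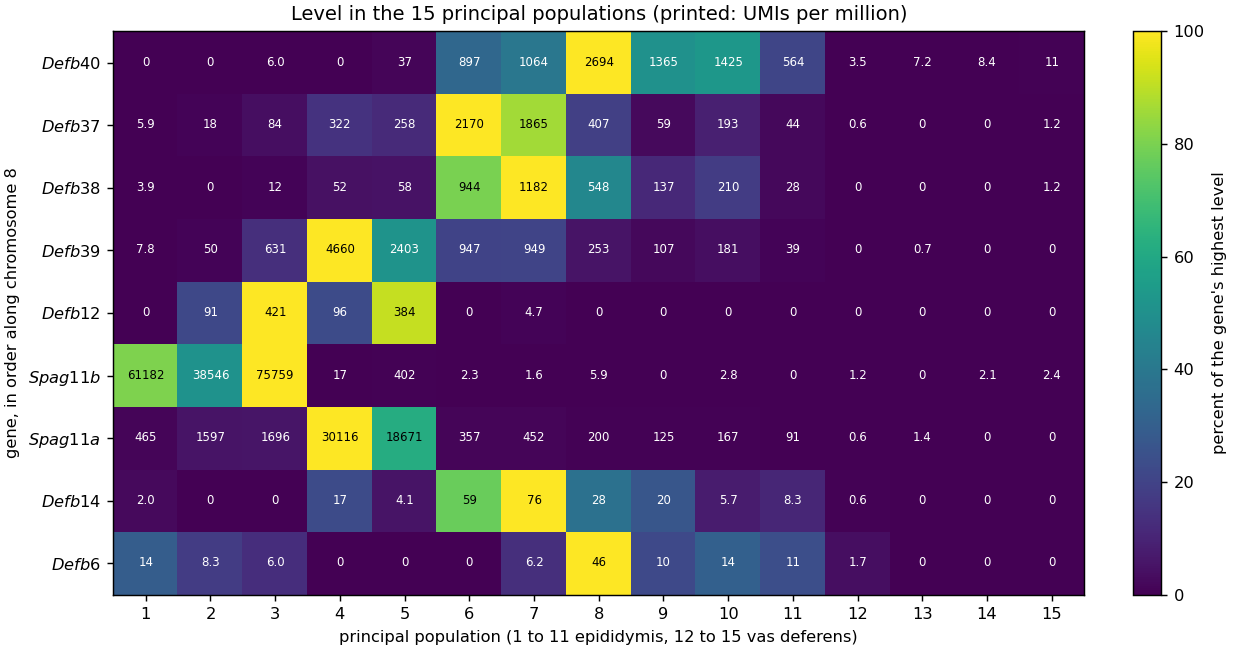
Level of the 9 genes, in order along the chromosome, in the 15 principal populations; the printed number is UPM and the colour is the percent of the gene's own highest level. The highest squares fall in population 3 for *Spag11b* and *Defb12*, 4 for *Spag11a* and *Defb39*, 6 or 7 for *Defb37*, *Defb38* and *Defb14*, and 8 for *Defb40* and *Defb6*.

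No gene of the 9 was enriched 4-fold over every other principal population, a rule that 0.167% of 7792 genes passed. Within 4-fold of a gene's highest level lay 2 populations for *Defb37* (6 and 7), *Defb39* (4 and 5), *Defb12* (3 and 5) and *Spag11a* (4 and 5), and 3 for *Spag11b* (1 to 3), *Defb38* (6 to 8) and *Defb6* (1, 8 and 10). There were 4 for *Defb14* (6 to 9) and 5 for *Defb40* (6 to 10). So 7 of 9 genes had 3 or fewer such populations, against 5.6% of the 7792 genes, whose median was 12. Read from the caput on, the peaks came in the order *Spag11b* (1 to 3), *Spag11a* with *Defb39* (4 and 5), *Defb37* with *Defb38* and *Defb14* (6 and 7), and *Defb40* (8). In the order of the genes along the chromosome, the highest populations were 8, 6, 7, 4 and 3 for the minus-strand genes *Defb40* to *Defb12*, then 3, 4, 7 and 8 for the plus-strand genes *Spag11b* to *Defb6*. For *Defb12*, population 5 did not differ from 3 beyond counting error, and for *Defb14* population 6 did not differ from 7. The places of both genes in this order are therefore not settled by these counts. That of *Defb6* rests on 39 UMIs. *Defb34* and *Defb4*, which also lie in the run, had 5 and 1 UMIs and are left out of the order.

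*Spag11b* had 61182 UPM in population 1, 38546 in 2 and 75759 in 3 (12597 UMIs), then 17.4 in population 4 (2 UMIs) and 402 in population 5 (195 UMIs). Population 3 was 4357 times above population 4 (1206 to 35980). *Spag11a* moved the other way, from 1696 UPM in population 3 to 30116 in population 4, a ratio of 17.8 (15.7 to 20.1). It had 18671 UPM in population 5 and 357 in population 6, a 52.3-fold drop (44.6 to 61.8). Of the 5525 *Spag11a* UMIs of caput principal cells, 3182 were in population 5 and 476 in population 4. Of the 9304 of the corpus, these populations held 5864 and 2988. The caput and corpus levels of *Spag11a* and *Defb39* therefore depend on how many cells of populations 4 and 5 each library held.

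**Figure D3:**
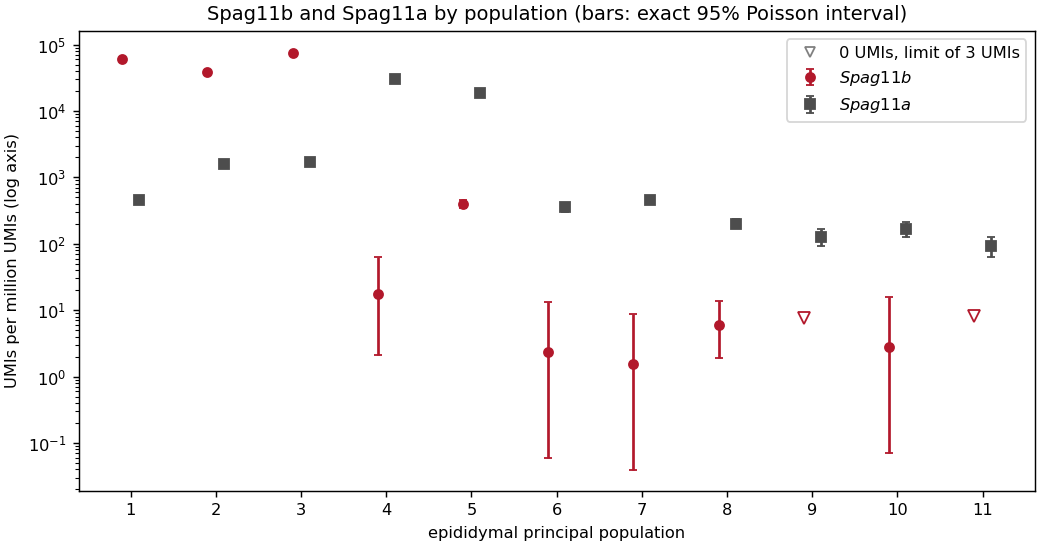
Levels of *Spag11b* (circles) and *Spag11a* (squares) in the 11 epididymal principal populations, as UPM on a log axis with exact 95% Poisson intervals; open triangles mark 0 UMIs at the limit of 3. *Spag11b* leads in populations 1 to 3 and *Spag11a* from population 4 on.

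As a share of the UMIs of the pair, *Spag11a* gave 0.754% in population 1 (exact binomial 95% interval 0.661% to 0.855%), 3.98% in 2 and 2.19% in 3. Any reads of the overlapping gene *Gm45826* from the words it shares with *Spag11a* could not be told apart from those of *Spag11a*. Their part in these shares was not tested. The share was 99.94% in population 4 (99.79% to 99.99%) and 97.9% in population 5 (97.6% to 98.2%). The genes are 14.9 kb apart on the same strand.

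The same counts were also viewed cell by cell. The populations were clustered on them, so these shares too are a description. Each cell was thinned to 1000 UMIs, which left out shallower cells, and shares carry Clopper-Pearson 95% intervals. A UMI of *Spag11b* was then found in 82 of 82 cells of population 1, 167 of 168 of population 2 and 44 of 45 of population 3, with medians of 49.5, 33 and 55 UMIs per cell. In population 4 it was found in 0 of 40 thinned cells, for which 3 cells would be 7.5% and the upper 95% limit is 8.81%. Both limit the share of cells with a UMI, not of cells that use the gene. *Spag11a* was found in 40 of 40 cells of population 4 and 105 of 105 of population 5. In populations 1 to 3 its share was 34.1%, 47.6% and 35.6%, with a median of 0 UMIs per cell, well above the 3.28% of caput basal cells (1.43% to 6.36%), whose median depth was 5488 UMIs against 565 to 1613 in populations 1 to 3. Without thinning the *Spag11a* shares were 27.1%, 39.9%, 19.2% and 4.28% in those 4 groups. Both genes were seen in 34.1%, 47.0% and 33.3% of cells of populations 1 to 3, and the part of *Gm45826* in these *Spag11a* UMIs was not tested.

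Population 5 held cells of both libraries. Its 67 caput cells had 194 UMIs of *Spag11b* (1082 UPM) and its 172 corpus cells had 1 UMI (3.28 UPM), a ratio of 330 (58.6 to 13110). *Spag11a* hardly differed between them, at 17747 and 19214 UPM (ratio 0.924, 0.884 to 0.965). *Spag11b* was found in 9 of 36 thinned caput cells of population 5 (12.1% to 42.2%) and in 1 of 69 corpus cells. In caput basal cells the share was 18.4% (13.8% to 23.9%) and the level 698 UPM (655 to 743), against 1082 UPM (935 to 1245) in the caput cells of population 5. The median depths were 1243 UMIs in the latter and 5488 in the former, and without thinning the shares were 17.9% and 17.8%. The part of ambient RNA in these UMIs was not tested.

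*Defb39* reached 4660 UPM in population 4 and 2403 in 5, against 631 in population 3 and 947 and 949 in populations 6 and 7, which did not differ (ratio 1.003, 0.883 to 1.14). It was found in 38 of 40 thinned cells of population 4 and 77.1% of population 5. Of its 727 UMIs in caput principal cells, 464 were in the 67 caput cells of population 5 and 112 in the 19 of population 4. *Defb37* had 2170 UPM in population 6 and 1865 in 7, on both sides of which it was lower. Population 6 was 8.41 times above population 5 (6.97 to 10.2), and population 7 was 4.58 times above population 8 (4.06 to 5.18). It was found in 74.1% and 64.7% of thinned cells there. *Defb38* had 944 UPM in population 6, 1182 in 7 and 548 in 8, and was found in 52.9% of thinned cells of population 7.

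*Defb40* began at the same border as *Defb38*. It rose from 37.2 UPM in population 5 to 897 in 6, a ratio of 24.1 (15.1 to 41.2), and it remained at 1064 in 7, 2694 in 8, 1365 in 9, 1425 in 10 and 564 in 11. Populations 9 and 10 did not differ beyond counting error (ratio 1.04, 0.923 to 1.18). A UMI was found in 72.6% of thinned cells of population 8 (65.7% to 78.8%). In the same libraries the share in basal cells was 1.76% in the corpus and 0.588% in the cauda, at median depths of 5821 and 5360 UMIs. The unthinned shares of *Defb40* were 41.9% in population 8, where 326 of 516 cells were too shallow to thin, 5.18% in corpus basal cells and 2.07% in cauda basal cells.

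The 4 related defensins were also counted cell by cell. In population 4, 67.5% of the 40 thinned cells showed 1 of the 4 and 27.5% showed 2. In population 6, 32.4% showed 3 and 3.60% all 4, and in population 7 these shares were 25.2% and 20.2%. Cells with 2 or more of the 4 made up 70.5% and 64.7% of populations 6 and 7, 34.2% of population 8 and 0 of the thinned cells of populations 1 to 3. Detection depends on level, so a cell without a UMI may still use the gene.

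**Figure D4:**
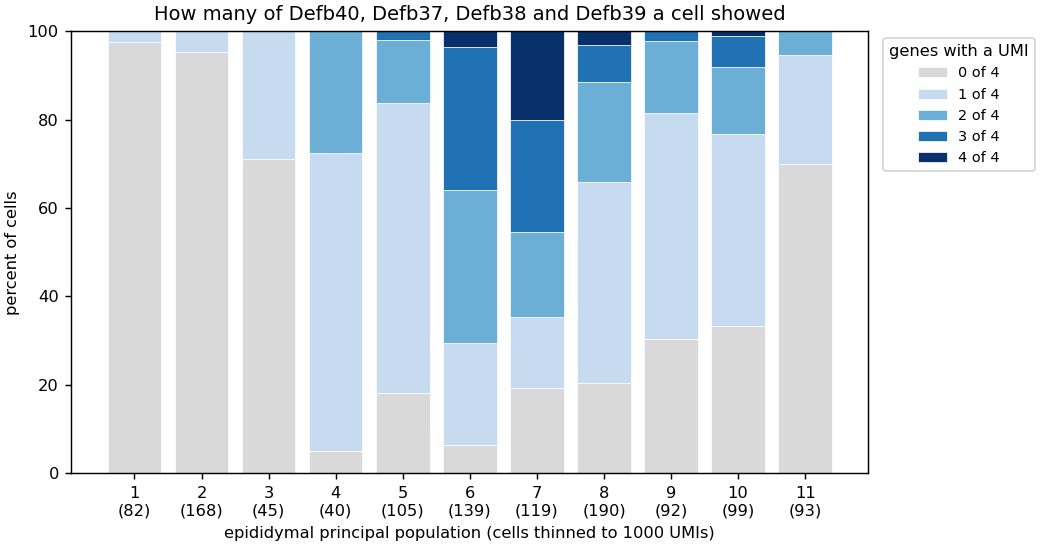
Percent of cells, thinned to 1000 UMIs, in which 0 to 4 of *Defb40*, *Defb37*, *Defb38* and *Defb39* had a UMI, for the 11 epididymal principal populations (number of cells in brackets). Cells with 3 or 4 of the genes are concentrated in populations 6 and 7, and population 4 mostly shows 1.

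Where a population held cells of 2 libraries, several members still differed between the libraries. Population 8 held 486 cauda and 22 corpus cells. In its corpus cells *Defb37* had 2688 UPM (29 UMIs) against 384 UPM in the cauda cells, a ratio of 7.00 (4.61 to 10.3). *Defb38* differed 3.25-fold (1.94 to 5.14), *Defb39* 4.14-fold (2.03 to 7.56) and *Spag11a* 3.76-fold (1.59 to 7.58) in the same direction, and *Defb40* the other way, at 742 against 2757 UPM (ratio 0.269, 0.116 to 0.531). So the corpus cells of this population carried more of these 4 genes and less *Defb40*. *Defb14* and *Defb6* had 0 UMIs in the corpus cells, too few to compare. In population 4, the 19 caput and 55 corpus cells had 4853 and 4612 UPM of *Defb39*, a ratio of 1.05 (0.847 to 1.30), while *Spag11a* was lower in the caput cells (ratio 0.635, 0.575 to 0.699). In population 11, the 141 cauda cells had 727 UPM of *Defb40* and the 100 vas deferens cells 179 UPM (ratio 4.07, 2.53 to 6.91). Position along the duct within a library and the library itself cannot be told apart in these contrasts.

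*Defb12* had its 2 highest levels, 421 UPM (70 UMIs) and 384 UPM (186 UMIs), in populations 3 and 5, which did not differ (ratio 1.10, 0.821 to 1.45). Population 4, numbered between them, had 95.6 UPM from 11 UMIs, 4.40 times below population 3 (2.32 to 9.22). It was found in 28.9% and 26.7% of thinned cells of populations 3 and 5, against 0.410% of caput basal cells. *Defb14* had 76.1 UPM in population 7 and 58.7 in 6 (ratio 1.30, 0.785 to 2.19), and its UMIs came from 38 cells of population 7 and 21 of population 6. Across the populations its level had r = 0.93 with *Defb38* and r = 0.43 with *Spag11a*, the gene just before it on the chromosome.

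*Defb6* was the least tied to principal cells. It had 46.3 UPM in population 8 (39 UMIs in 29 cells), 13.7 in population 1 (7 UMIs) and 8.29 in population 2 (7 UMIs), and 0 UMIs in populations 4, 5 and 6. In the cauda its level was 31.6 UPM in principal cells, 12.1 in clear cells (7 UMIs) and 5.23 in basal cells (5 UMIs). In the caput, basal cells had 8.50 UPM (12 UMIs in 9 cells) and principal cells 8.70, a ratio of 0.977 (0.418 to 2.24). In the vas deferens, 9 of its 11 UMIs were in basal cells, from 9 cells (6.66 UPM), against 1 UMI in principal cells, a ratio of 31.2 (4.32 to 1367). No *Defb6* UMI was seen in muscle cells.

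Principal cells held 96.9% of the 107981 UMIs of the 9 genes. The summed level in principal cells was 61.5 times that in the other cells of the caput (58.9 to 64.2). The ratio was 56.2 for the corpus (52.8 to 59.9), 61.8 for the cauda (52.7 to 73.0) and 4.71 for the vas deferens (3.46 to 6.52). The other cells were deeper, with median depths of 3798, 3378, 4787 and 2627.5 UMIs against 844, 658, 889 and 1286.5 in principal cells.

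**Figure D5:**
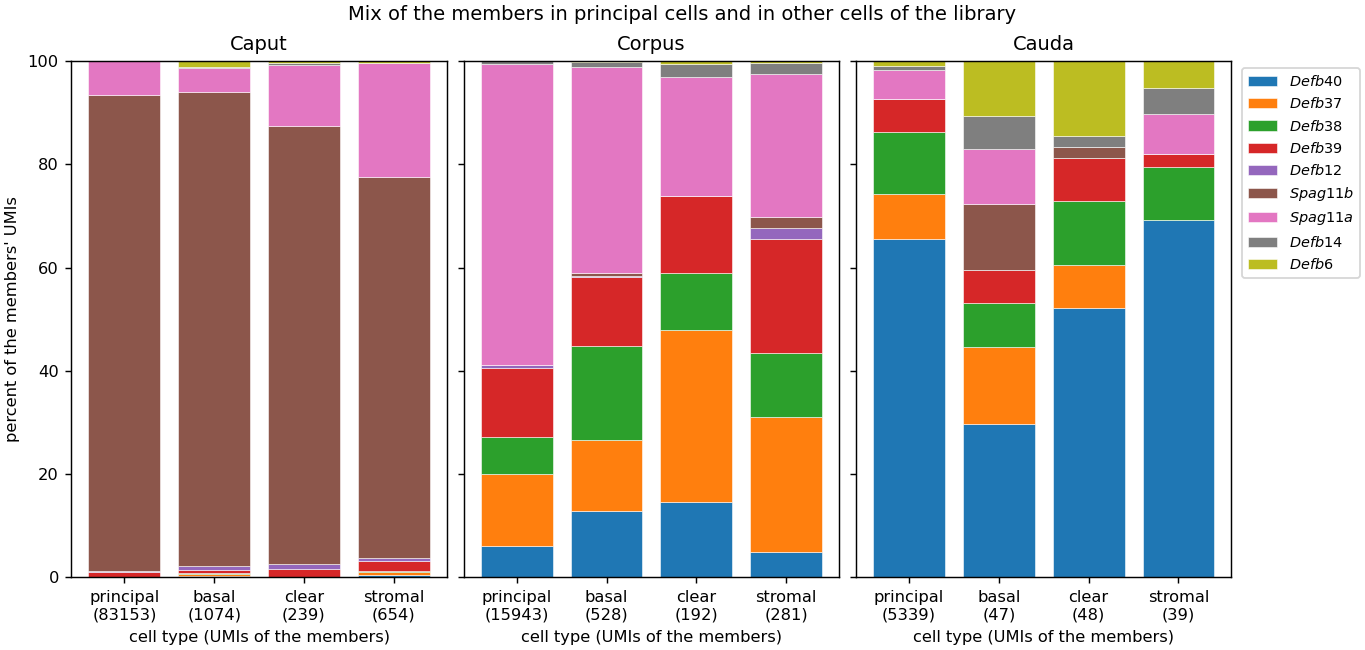
Share of each of the 9 genes among their UMIs in principal, basal, clear and stromal cells of the caput, corpus and cauda libraries, with the number of UMIs in brackets. *Spag11b* takes 92.0% in caput principal cells and 91.7% in caput basal cells, and *Spag11a* takes 58.4% in corpus principal cells and 22.9% to 40.0% in the other corpus cells drawn.

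In the caput the mix of members in basal cells was close to that in principal cells: *Spag11b* was 91.7% of 1074 UMIs (89.9% to 93.3%). In stromal cells it was 73.9% of 654 UMIs (70.3% to 77.2%) with *Spag11a* at 22.2%, but 121 of the 145 *Spag11a* UMIs were in 1 cell. Without that cell *Spag11b* was 92.7% (89.99% to 94.8%) and *Spag11a* 4.89%. In clear cells *Spag11b* was 84.9% of 239 UMIs. The levels of *Spag11b* were 698 UPM in basal, 763 in clear, 578 in stromal and 494 in endothelial cells, and 1503 UPM in the 11 immune cells (46 UMIs, 3 cells). In the corpus, *Spag11a* was 58.4% of the members' UMIs in principal cells but 40.0% in basal (35.8% to 44.3%), 27.8% in stromal and 22.9% in clear cells. There *Defb37* was 13.9% in principal and 13.6% in basal cells, and 26.0% and 33.3% in stromal and clear cells. In corpus clear cells 31 of the 64 *Defb37* UMIs were in 1 cell, without which *Defb37* was 24.6% (17.6% to 32.8%) and *Spag11a* 32.8%. Ambient RNA had been partly removed by the authors, and its part in the UMIs outside principal cells was not tested.

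The RefSeq table (GRCm38.p6, 250 bases before to 50 after the start) held promoter windows for 3 of these genes, and a pair of them belong to the neighbours *Defb38* (chr8:19026519-19026818, minus strand) and *Defb39* (chr8:19064872-19065171, minus strand). They are shown because these genes peak in neighbouring populations, *Defb39* in populations 4 and 5 and *Defb38* in 6 and 7. Capitals mark the longest run common to both and, near the end of the *Defb39* window, the letters AGAACA, a core motif of androgen receptor sites.
Defb38: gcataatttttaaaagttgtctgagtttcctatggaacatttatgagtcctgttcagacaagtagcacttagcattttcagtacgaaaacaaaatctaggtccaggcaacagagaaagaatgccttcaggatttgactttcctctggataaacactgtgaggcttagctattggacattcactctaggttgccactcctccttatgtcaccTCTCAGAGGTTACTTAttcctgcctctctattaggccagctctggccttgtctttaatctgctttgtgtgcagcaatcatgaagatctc
Defb39: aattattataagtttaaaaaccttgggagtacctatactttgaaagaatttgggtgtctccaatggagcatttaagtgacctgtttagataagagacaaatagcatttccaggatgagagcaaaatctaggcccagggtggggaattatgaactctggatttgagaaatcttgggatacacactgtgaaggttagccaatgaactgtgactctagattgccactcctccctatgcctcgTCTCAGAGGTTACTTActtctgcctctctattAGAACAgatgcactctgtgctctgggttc

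The windows were 61.6% identical over their alignment, and the shared run of 16 bases begins 39 bases before the *Defb38* start and 11 before that of *Defb39*. The window of *Defb6* (chr8:19225228-19225527) was 48.6% and 48.0% identical to them. Both strands were searched for exact matches to 3 motifs, so variants, such as the letters TATATAAG in the *Defb6* window, were not counted. TATAAA was in 0 of the 3 windows and in 13.6% of the 32851 windows of the table, AGAACA in *Defb39* alone and in 19.0% of the table, and AGGAAG, the core of the PEA3 site, in *Defb6* alone and in 35.4% of the table.

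Across the 15 principal populations, the genes most like each member were ranked by Pearson's r of log2(UPM + 1) among the 7437 genes with at least 100 UMIs in principal cells. The populations share libraries and depth, so r is a description. *Spag11b* was most like *Lcn6* (r = 0.98), a lipocalin of the epididymis, with *Klrb1a* and *Armcx6* next. *Spag11a* was most like the protease inhibitor gene *Spink12* (r = 0.96), *Trpm3*, which encodes a cation channel, and *Crisp4*, which encodes a cysteine-rich secretory protein of sperm. *Defb39* was most like *AY761185* (r = 0.98), *Rnase9* (r = 0.97), of the ribonuclease A family, and *Gstm7*, a glutathione transferase gene. *Defb37* was most like *Npy* (r = 0.96), which encodes neuropeptide Y, then *Aspg* and *Pate2*, and *Defb38* was most like *Ddah1* (r = 0.96), *Npy* and *Rgn*. *Defb40* was most like *Rab3c* (r = 0.97), *Slc52a3*, a riboflavin transporter gene, and *Wfdc16*. *Defb12* was most like another beta-defensin gene, *Defb15* (r = 0.96), then *Muc5b* and *Rnase13*, and *Defb14* was most like *Defb38* itself (r = 0.93), *Btg1* and *Bsph2*. *Defb6*, with 74 UMIs in principal cells, had too few for this ranking.

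Among themselves, *Defb37* had r = 0.93 with *Defb38* and r = 0.93 with *Defb39*, and *Defb39* had r = 0.90 with *Spag11a*. The adjacent *Spag11b* and *Spag11a* had r = 0.51, and *Spag11b* and *Defb40* had r = -0.56, the lowest of the 36 pairs.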

How the data were processed

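The authors prepared Chromium Single Cell 3′ V2 libraries, aligned reads to mm10 with HISAT2 2.0.4, counted gene UMIs with ESAT ignoring reads that matched several places, kept barcodes within limits on their UMIs and removed ambient RNA with a modified SoupX. The deposited counts are UMIs per gene and cell after that removal, and the deposited cell table gives the library, the population and a size factor (a score per cell, from scran), used only in an alternative. Ambient removal took 2.80% to 4.48% of UMIs per library. Whether the counting used strand is not given in the sources used here.

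Counts were summed per group of cells (Python 3.11.15, scipy 1.17.1). Cells are not replicates, so no test was run. Ratios carry exact conditional binomial intervals. A count of 0 was raised to 3 UMIs in the call rules. Shares used cells thinned to 1000 UMIs. Called doublets (1.12% to 2.80% of a library) were kept and left out in an alternative. The rules were tested on simulated counts. Members and gene lists were chosen with earlier results of these data known. Named genes are the members, the 3 genes most like each, and neighbours on the chromosome. Positions come from GENCODE vM21 and promoter windows from RefSeq. Planned protein features were not computed, for lack of a protein table. Alternatives were other folds and UMI limits, per-cell means, deeper cells, the size factors, leaving out doublets or cell types, and, chosen after the data were seen, leaving out cells whose barcode occurs in more than 1 library, or the cell with most UMIs of a gene.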

Additional observations from a re-analysis of the deposited data

How the results depend on the processing

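In all, 231 alternative values were computed. Of the counts, summed values and *Spag11a* shares of the pair, 90 stayed within the limit set for them and 21 did not. Of the other values, for single genes, 83 did and 37 did not. The 63 log2 ratios between the highest and next library kept their direction. The count of genes restricted to 1 region went from 2 to 9 at 2-fold and to 1, *Spag11b*, at 8-fold. It was 3 without called doublets, with *Defb6* added, and 3 over all cells of a library, where *Defb40*, *Defb12* and *Spag11b* passed and *Defb37* did not. The shares of all genes deep enough were 19.1% at 2-fold, 2.93% at 8-fold, 6.27% without doublets and 3.73% over all cells. The principal cell level over that of other cells became 65.5 in the caput and 68.7 in the corpus with cells of at least 1000 UMIs, and 73.0, 77.8 and 74.1 in the caput, corpus and cauda without doublets. Leaving out 1 cell type at a time gave 59.5 to 62.6 in the caput, 47.9 to 62.8 in the corpus, 51.7 to 72.9 in the cauda and 4.60 to 5.23 in the vas deferens. As a mean over cells, the *Spag11a* share of the pair was 5.17% in population 2, 1.45% in 3 and 96.7% in 5, and with cells of at least 1000 UMIs it was 3.60%, 2.75% and 98.3%. It was 1.88% in population 3 without shared barcodes. Of the 24 like genes named, 8 remained with Spearman's rho, 15 with log2(UPM + 10) and 5 over all 34 populations, so this list rests on the measure chosen. The causes were not tested. Genes present in most cells of their highest population numbered 6, and 4 when cells were not thinned. No paired analysis was possible because each region was 1 library. Depth limits *Defb14* and *Defb6* most, and the vas deferens values of all 9 genes but *Defb40* rest on 13 or fewer UMIs. Of the 156 *Defb40* UMIs there, 87 were in 26 cells of population 9, which held mostly cauda cells.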

Other observations

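The other beta-defensin genes close to the 9 were hardly counted or had no row. Of the near neighbours, *Defb34* had 5 UMIs in the whole table, *Defb4* 1 and *Defb3* 1, and *Defb46*, *Defb5*, *Defb8* and *Defb7* had no row in it. Further along the chromosome, *Defb1* was highest in clear cells, at 1721 UPM, and basal cells, at 665 UPM, against 63.0 UPM in principal cells. *Defb2* was a principal cell gene, with 9590 UPM in the cauda, 704 in the corpus, 433 in the vas deferens and 134 in the caput. *Defb50* had 96 UMIs and was highest in clear cells, at 50.6 UPM.

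Of 31 other genes named *Defb* in the table, 25 had at least 20 UMIs in principal cells of a library. Among these, 15 passed the 4-fold rule for 1 region and 20 the 2-fold rule, against 2 and 9 of the 9 genes described above. By the separate limit of 20 UMIs in any of the 34 populations, 25 of the 31 genes were also deep enough. Of that set, 23 were highest in a principal population.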
